A study of Mus musculus with 8 samples.

Results

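The 8 genes described here encode the enzymes that crosslink collagen, namely the lysyl oxidases Lox, Loxl1, Loxl2, Loxl3 and Loxl4 and the lysyl hydroxylases Plod1, Plod2 and Plod3. They were chosen by name, with earlier results of these data known, and are 8 of the 28956 genes in the count tables. All 8 were among the 26180 genes found in at least 3 cells. Droplet single-cell RNA sequencing (Chromium 3′ version 3) had been performed on non-haematopoietic stromal cells of the femur of female C57BL/6 mice. In the Fracture group the left leg of mice aged 10 weeks was broken by three-point bending, stabilized with a nail in the marrow cavity and collected on day 14. The Control group was unfractured femur of mice aged 12 weeks, the same age as the Fracture mice at collection. Each group held 2 cell preparations with 2 libraries each, 8 libraries in all. No label says whether the preparations came from separate animals, so p-values measure the spread between these preparations only.

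Collagen is made as procollagen chains in the endoplasmic reticulum, where lysyl hydroxylases add a hydroxyl group to selected lysines. Plod1 acts mainly on the helical part of the chain, Plod2 mainly on the telopeptides at its ends, and Plod3 also carries sugar transferase activity. Outside the cell, the copper-dependent lysyl oxidases turn lysine and hydroxylysine into aldehydes that condense into crosslinks between neighbouring molecules. Whether a telopeptide lysine was hydroxylated decides which kind of crosslink forms, and hydroxylysine-derived crosslinks are typical of cartilage and bone.

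The coding bases around the metal-binding residues are shown because they define both enzyme families. They were read from GENCODE M21 transcripts on GRCm38, 5′ to 3′ on the coding strand. In the lysyl oxidases the stretch encodes a tryptophan- and histidine-rich copper-binding sequence, with the 4 histidine codons in capitals. In these 4 genes the stretch spans an intron.
Loxl1: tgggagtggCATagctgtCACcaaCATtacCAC
Loxl2: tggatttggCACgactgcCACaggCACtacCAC
Loxl3: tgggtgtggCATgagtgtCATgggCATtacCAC
Loxl4: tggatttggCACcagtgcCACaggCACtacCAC
Loxl2 and Loxl4 shared 31 of 33 bases, while the other pairs shared 21 to 25. In the lysyl hydroxylases the stretch lies in 1 coding exon and encodes part of the iron-binding site, with the codons of 2 neighbouring histidines and 1 aspartate in capitals. Of these the first histidine and the aspartate are known to bind iron, the histidine between them is not a ligand, and the remaining ligand histidine lies outside the stretch.
Plod1: CACCATGACgcctctaccttcacc
Plod2: CACCACGATgcctcaacctttacc
Plod3: CACCATGACtcgtccaccttcact
Plod1 shared 20 of 24 bases with Plod2 and 20 with Plod3, and Plod2 and Plod3 shared 17. The genes lie apart from each other in the genome (GRCm38), Plod1 at chr4:147909753-147936767 on the minus strand, Plod3 at chr5:136987019-136996648 on the plus strand, Loxl3 at chr6:83034173-83052562 on the plus strand, Loxl1 at chr9:58287738-58313186 on the minus strand, Plod2 at chr9:92542223-92608428 on the plus strand, Loxl2 at chr14:69609068-69695834 on the plus strand and Loxl4 at chr19:42593982-42612813 on the minus strand. Loxl3 overlaps Htra2 and Plod3 overlaps Znhit1, both protein-coding genes of the opposite strand, and antisense or unclassified transcripts overlap Lox, Loxl2 and Plod2. Whether counting used strand is not given in the sources used here, so reads of these partners could not be told apart.

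The libraries held 56543151 to 89126291 unique molecular identifiers (UMIs, one per captured RNA molecule), and 45328 of 48903 barcodes passed the filters. Clusters were named from marker genes and carry the ending "-like". There were 16678 chondrocyte-like, 6100 osteoblast-like, 6458 bone marrow stromal (BMSC)-like, 2091 fibroblast-like, 5550 endothelial-like and 1204 smooth muscle-like cells, and 7247 cells of 4 blood classes. Chondrocyte-like cells were 16.3% and 8.5% of the Control preparations and 57.3% and 55.7% of the Fracture preparations, and blood classes 28.3% and 36.9% against 2.73% and 3.06%. The smallest barcode held 1 to 3 UMIs in the Control libraries and 1929 to 2724 in the Fracture libraries, so barcode selection and group cannot be told apart. The Fracture preparations were closer to each other than the Control preparations. Among osteoblast-like cells the median chi-square of a gene was 2.2 times counting error between the Fracture preparations and 4.59 times between the Control preparations. Both exceeded the values between libraries of one preparation, 1.31 to 1.51, and the preparations were therefore kept as separate samples.

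In Control bone each enzyme had its own distribution over the cell classes. Levels here are CPM (the UMIs of a gene scaled to a common total of UMIs per class), given for Control preparations 1 and 2. Lox, the founding lysyl oxidase, was highest in osteoblast-like cells (939 and 860), followed by BMSC-like (351 and 426) and fibroblast-like cells (265 and 251), and it was 56.8 and 43.9 in chondrocyte-like cells. The first 3 classes did not overlap in that order. Loxl1, which is known for its part in elastic fibres, was highest in BMSC-like cells (420 and 435) and was 7.66 and 6.18 in osteoblast-like cells. BMSC-like cells held 81.1% and 91% of all Loxl1 UMIs of the Control preparations.

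Loxl2, a lysyl oxidase with scavenger receptor domains, was highest in Control osteoblast-like cells (148 and 190), and chondrocyte-like and fibroblast-like cells overlapped below them (113 and 101.1 against 84.1 and 115). Loxl3 was highest in chondrocyte-like cells (126 and 114). Loxl4 was also highest in chondrocyte-like cells (70.6 and 90.5), which held 72.9% and 66.3% of its UMIs, and it was 5.39 and 4.96 in BMSC-like cells. The 3 oxidases with scavenger receptor domains thus included 2 that were highest in chondrocyte-like cells.

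Among the hydroxylases, Plod1 was highest in endothelial-like cells (184 and 201), above fibroblast-like (76.6 and 56.7) and chondrocyte-like cells (60.7 and 66.9). Plod2 was highest in chondrocyte-like cells (1029 and 1028) and next in osteoblast-like cells (748 and 708). The Plod2 levels of fibroblast-like cells were far apart, 700 and 394. Plod3 ran from 70.8 and 68.2 in fibroblast-like to 20.9 and 23.1 in osteoblast-like cells. Erythroid-like cells, which should lack these enzymes, held 25.6 and 9.55 CPM of Lox and 16.2 and 8.01 of Plod2 in Control, and 178 and 129 of Lox and 97.7 and 75.8 of Plod2 in Fracture. These values are taken as a guide to the level that free RNA can reach in a class, not as its limit. Megakaryocyte-like cells held 197 and 80.5 CPM of Plod2 in Fracture, from 56 and 16 UMIs. Basophil-like cells held 119.5 and 70.4 CPM of Plod2 in Fracture. In both classes the Fracture Lox values lay below the erythroid-like ones.

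**Figure D1:**
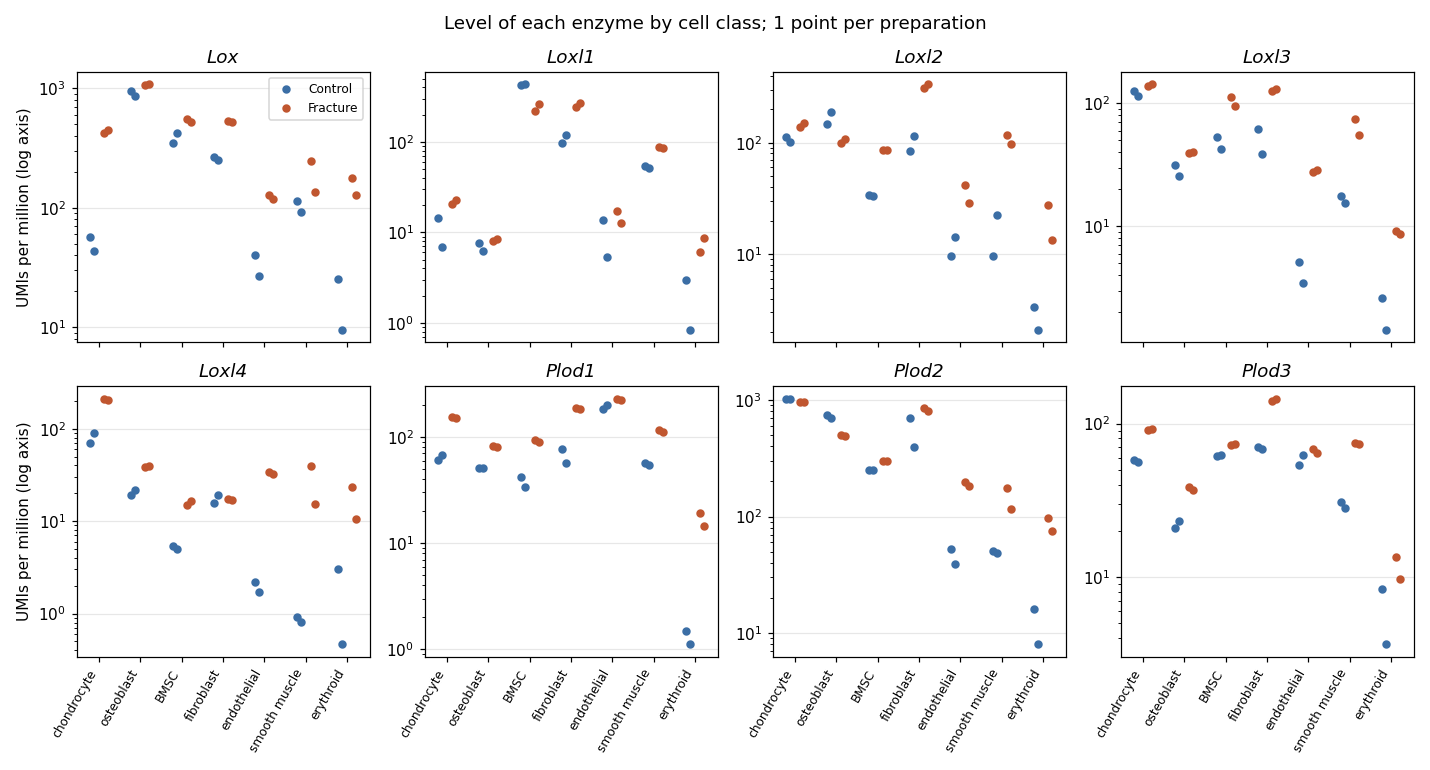
Level of each enzyme in CPM (log axis) in 6 stromal classes and in erythroid-like cells, with 1 point per preparation. Lox in chondrocyte-like cells was 56.8 and 43.9 in Control and 426 and 445 in Fracture, and erythroid-like cells were also higher in Fracture, with Lox at 178 and 129.

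The question of the comparison between Fracture and Control was how the enzymes of each class differ in healing bone. UMIs were summed per preparation and class and tested with the quasi-likelihood test of edgeR, with Benjamini-Hochberg adjustment over all genes and calls at an adjusted p under 0.05 (n = 2 preparations per group). In chondrocyte-like cells 6 of the 8 enzymes rose and none fell, beside 19.2% of all 17291 tested genes that rose and 18.1% that fell. In osteoblast-like cells 3 rose and 2 fell (background 9.76% and 6.67%). In BMSC-like cells 7 rose and 1 fell (background 25.6% and 25.9%). In fibroblast-like cells 6 rose (background 8.32%, with 7.99% that fell), in endothelial-like cells 6 rose (background 17.9% and 15.9%) and in smooth muscle-like cells 7 rose (background 14.9% and 13.3%). The median log2 fold change of the 8 enzymes was 0.99 in chondrocyte-like, 0.30 in osteoblast-like, 0.99 in BMSC-like, 1.22 in fibroblast-like, 1.84 in endothelial-like and 1.46 in smooth muscle-like cells, where the median of all tested genes lay between -0.028 and 0.009. Plod1 rose in 6 of 6 classes, and Loxl1, Loxl2 and Plod2 each fell in 1 class.

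These calls depended on both Fracture preparations. Without Fracture preparation 1 or without Fracture preparation 2, none of the 8 enzymes was called by edgeR in osteoblast-like, fibroblast-like or endothelial-like cells, and 3 were called in chondrocyte-like cells. In smooth muscle-like cells 4 were called without Fracture preparation 1 and 7 without Fracture preparation 2, and in BMSC-like cells 4 and 5. As 1 example of effect size, Loxl2 was called in osteoblast-like, fibroblast-like and endothelial-like cells with all 4 preparations. Without a Fracture preparation its log2 value ran from -0.88 to -0.7, from 1.73 to 1.84 and from 1.41 to 1.94 in these classes. Without either Control preparation 6 to 8 enzymes were called per class. With all 4 preparations, DESeq2 called 7, 6, 8, 6, 6 and 7 enzymes in the classes in the order above. The shares of all genes called by DESeq2, or with a preparation left out, are not set beside these counts. The counts therefore cannot be read as particular to the enzymes.

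The BMSC-like class differed between the groups in its own markers, and its result depended on how cells were clustered. The 9 BMSC markers summed to 30930 and 32660 CPM in Control and 2652 and 3269 in Fracture. Fibroblast markers in the class summed to 115 and 35.2 against 729 and 814, chondrocyte markers to 634 and 255 against 1840 and 1887, and smooth muscle markers to 279 and 226 against 1282 and 1064. The part of these shifts in the enzyme, collagen and pathway values of BMSC-like cells was not tested. Without integration of the libraries this class held 1235 Fracture cells in place of 2112, while the fibroblast-like class held 2354 in place of 1554. In those clusters 3 of the 8 enzymes were called in BMSC-like cells, a count without the share of all genes beside it. Lox then stood at -0.27 (adjusted p = 0.112) and Plod3 at -0.18 (adjusted p = 0.152) on the log2 scale by edgeR, against 0.66 and 0.44 in the integrated clusters. Loxl2 stood at 0.20 (adjusted p = 0.199, edgeR) against 1.54, Loxl3 at 0.32 (adjusted p = 0.16, edgeR) against 1.31 and Plod2 at 0.17 (adjusted p = 0.171, edgeR) against 0.46.

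The fibroblast-like class also held less of its own markers after fracture. Its 8 fibroblast markers summed to 20970 and 22310 CPM in Control and 7859 and 8317 in Fracture, while chondrocyte markers summed to 10770 and 7007 against 8764 and 8146. The enzyme and pathway values of fibroblast-like cells, and the comparisons of this class with others, therefore set cells with unlike marker levels side by side, and the part of this shift in them was not tested.

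Lox showed the largest rise of any enzyme in chondrocyte-like cells. Levels given with a fold change from here on are CPM scaled by TMM, while levels of erythroid-like cells, marker sums and collagen sums are CPM without that scaling. Lox was 53.5 and 42 in Control and 445 and 473 in Fracture. Both Fracture values lay above both Control values, a 9.61-fold rise (log2 3.26 ± 0.14 SE, adjusted p = 0.00126, edgeR). The 9 osteoblast markers moved with it in the class, from 7957 and 9561 CPM in Control to 14250 and 15040 in Fracture, while the 11 chondrocyte markers summed to 51750 and 49050 against 51040 and 50360. Alpl and Ibsp of the osteoblast list are also hypertrophic chondrocyte markers. The hypertrophic chondrocyte-like cells described below numbered 484 of the 2746 Control and 5010 of the 13932 Fracture cells. In Control they held 199.9 and 125 of Lox, against 10.9 and 11.3 in other chondrocyte-like cells. The part of the osteoblast markers' shift and of this makeup in the Lox difference was not tested. The Fracture values also lay above the erythroid-like level of Lox in the same preparations. The class joins 2 clusters, of which one held 1655 of the 2746 Control and 11564 of the 13932 Fracture cells. In that cluster Lox was 84.7 and 65.7 in Control and 511 and 538 in Fracture (log2 2.80 ± 0.14, adjusted p = 0.00121, edgeR). In the other cluster it was 7.93 and 2.17 against 52 and 62.2 (log2 3.39 ± 0.55, adjusted p = 0.0295, edgeR), where the Fracture values lay below the erythroid-like level and cannot be told apart from free RNA. Without integration, 1 chondrocyte-like cluster held 144 and 65 Control and 5562 and 5823 Fracture cells. The other held 1780 and 566 Control and 1225 and 1275 Fracture cells. The groups thus lay mostly in different clusters there, and the part of this in the Lox difference was not tested. In fibroblast-like cells Lox was 263 and 242 in Control and 545 and 542 in Fracture (2.15-fold, log2 1.10 ± 0.11, adjusted p = 0.011, edgeR). In osteoblast-like cells, where Lox was highest, it was 940 and 902 in Control and 1019 and 1080 in Fracture and did not pass the test (log2 0.19 ± 0.08, adjusted p = 0.151, edgeR). Osteoblast-like cells held 75.3% and 71.5% of all Lox UMIs in Control and 28.1% and 28.6% in Fracture, and chondrocyte-like cells 4.4% and 2.2% against 54.7% and 55.3%.

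Loxl1 differed in direction between the stromal classes. In BMSC-like cells it was 391 and 409 in Control and 236 and 283 in Fracture, without overlap, a 1.54-fold fall (log2 -0.63 ± 0.11, adjusted p = 0.0115, edgeR). In fibroblast-like cells, whose fibroblast markers were lower in Fracture, it was 97.4 and 114 in Control and 251 and 277 in Fracture, a 2.5-fold rise (log2 1.32 ± 0.14, adjusted p = 0.011, edgeR). In smooth muscle-like cells it rose 1.66-fold (adjusted p = 0.0176, edgeR). There the 7 smooth muscle markers summed to 42200 and 38390 CPM in Control and 20860 and 23240 in Fracture and the fibroblast markers to 743 and 739 against 1925 and 2465, and their part in the Loxl1 difference was not tested. BMSC-like cells were the class with most Loxl1 in Control, and the fibroblast-like and BMSC-like ranges overlapped in Fracture. The BMSC markers of BMSC-like cells were lower in Fracture, as given above. Without integration 1235 Fracture cells were BMSC-like and 2354 fibroblast-like, against 2112 and 1554 with it. The part of these in the Loxl1 differences of the 2 classes was not tested.

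Loxl2 rose in 5 classes and fell in osteoblast-like cells. Osteoblast-like cells held 148 and 199 in Control and 94.2 and 107 in Fracture, a 1.72-fold fall (log2 -0.79 ± 0.16, adjusted p = 0.039, edgeR). Fibroblast-like cells held 83.5 and 111 in Control and 320 and 347 in Fracture, a 3.45-fold rise (log2 1.79 ± 0.17, adjusted p = 0.0101, edgeR), and became the class with the highest Loxl2, with their fibroblast markers lower in Fracture as given above. BMSC-like cells held 31.5 and 31.6 in Control and 91.9 and 92.1 in Fracture, a 2.91-fold rise (log2 1.54 ± 0.07, adjusted p = 0.00132, edgeR) that was not called without integration.

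Loxl3 rose 2.64-fold in fibroblast-like cells (61.1 and 37.3 in Control, 129 and 136 in Fracture, adjusted p = 0.0275, edgeR) and 2.47-fold in BMSC-like cells (50.1 and 40.3 against 120 and 103, adjusted p = 0.00377, edgeR). The BMSC-like rise was not called without integration. In chondrocyte-like cells, the main site of Loxl3, the change was 1.3-fold (119 and 110 against 145 and 152, adjusted p = 0.0152, edgeR). Loxl4 rose 2.87-fold in chondrocyte-like cells, from 66.5 and 86.6 to 221 and 218 (log2 1.52 ± 0.14, adjusted p = 0.00439, edgeR). In the hypertrophic chondrocyte-like subclass, where Loxl4 was higher, the rise was 1.54-fold (log2 0.62 ± 0.09, adjusted p = 0.0122, edgeR). That subclass held 484 of the 2746 Control and 5010 of the 13932 Fracture cells of the class. The part of this makeup in the Loxl4 difference of the class was not tested. In fibroblast-like cells Loxl4 was 15.4 and 18.7 in Control and 17.7 and 17.3 in Fracture, with overlapping preparations. In BMSC-like cells it rose 3.45-fold at a low level, from 5.02 and 4.67 to 15.8 and 17.8 (adjusted p = 0.0022, edgeR), and erythroid-like cells held 23.3 and 10.6 CPM of Loxl4 in Fracture.

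Plod1 and Plod3 rose together in the mesenchymal classes. In chondrocyte-like cells Plod1 went from 57.1 and 64.1 to 160 and 161 (2.64-fold, log2 1.4 ± 0.07, adjusted p = 0.00168, edgeR), and Plod3 from 54.8 and 53.7 to 94.9 and 98.3 (1.78-fold, log2 0.83 ± 0.05, adjusted p = 0.00215, edgeR). In fibroblast-like cells Plod1 rose 2.87-fold and Plod3 2.16-fold, in BMSC-like cells 2.74-fold and 1.36-fold (Plod3 turned to log2 -0.18 without integration and was not called), and in osteoblast-like cells 1.53-fold and 1.63-fold. No Control value of either gene reached a Fracture value in these 4 classes.

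Plod2 did not follow them in chondrocyte-like and osteoblast-like cells. In chondrocyte-like cells, where it was highest, Plod2 was 969 and 985 in Control and 1002 and 1015 in Fracture (log2 0.05 ± 0.06, adjusted p = 0.571, edgeR). In osteoblast-like cells it fell from 749 and 743 to 475 and 491, 1.54-fold (log2 -0.63 ± 0.06, adjusted p = 0.00972, edgeR). In BMSC-like cells it rose 1.37-fold, from 232 and 235 to 317 and 323 (adjusted p = 0.00694, edgeR), a rise that was not called without integration. In fibroblast-like cells the Control preparations were 695 and 379, the Fracture preparations 883 and 841, and the difference did not pass the test (adjusted p = 0.186, edgeR). Osteoblast markers summed to 107400 and 124600 CPM in the Control and 46490 and 59470 CPM in the Fracture osteoblast-like cells. Chondrocyte markers there summed to 229 and 93.6 CPM in Control and 998 and 953 in Fracture. The part of these shifts in the Plod1, Plod2, Plod3, Loxl2 and Loxl4 differences of osteoblast-like cells was not tested.

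**Figure D2:**
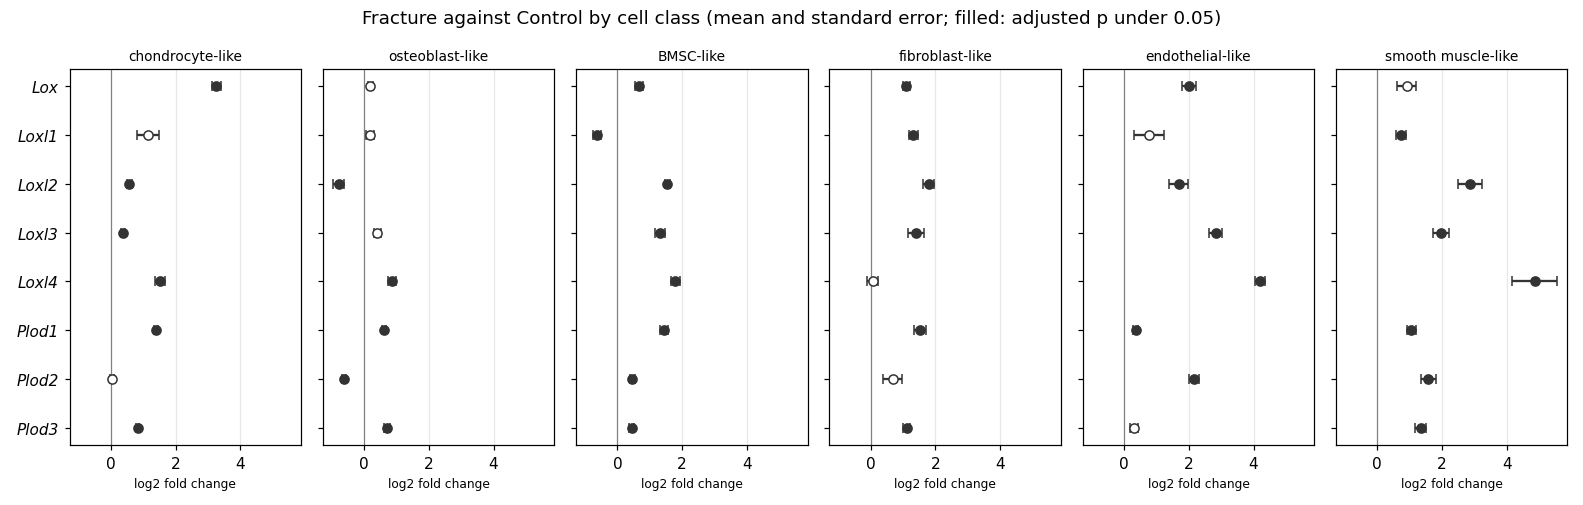
Log2 fold change of Fracture against Control (x axis) for each enzyme in 6 classes, with the standard error as bars and filled points where the adjusted p was under 0.05. Lox in chondrocyte-like cells stands at 3.26, and Loxl1 in BMSC-like cells and Loxl2 and Plod2 in osteoblast-like cells are the filled points left of 0.

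The endothelial-like and smooth muscle-like values need their background beside them. Loxl4 in endothelial-like cells was 2.07 and 1.67 in Control and 35.4 and 34.3 in Fracture, a difference of 18.4-fold (log2 4.21 ± 0.15, adjusted p = 0.00397, edgeR), and smooth muscle-like cells held 3 and 1 Loxl4 UMIs in Control and 54 and 21 in Fracture. Loxl4 was 3.01 and 0.466 CPM in Control and 23.3 and 10.6 in Fracture erythroid-like cells. Lox was 38.5 and 26.0 against 134 and 124 in endothelial-like cells, where the erythroid-like values in Fracture were 178 and 129. Plod2 was 50.5 and 38.3 against 205 and 193. The 11 chondrocyte markers summed to 947 and 380 CPM in Control and 7008 and 7036 in Fracture endothelial-like cells, and to 531 and 78.5 against 4292 and 3008 in smooth muscle-like cells. None of the markers was at 0, and their part in these differences was not tested. Plod1 in endothelial-like cells stood well above the erythroid-like level, at 175 and 195 in Control and 238 and 235 in Fracture, a 1.28-fold rise (adjusted p = 0.0309, edgeR).

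Whether the response differed between classes was tested directly in one fit of chondrocyte-like, osteoblast-like, BMSC-like and fibroblast-like cells, with a class-by-group term, the preparation as a block and adjustment over all 16661 genes. The fit used the integrated clusters only. Differences with BMSC-like cells, whose enzyme values moved without integration as given above, were not rerun on the other clusters. Over the 6 pairs of classes 36 of the 48 differences of the enzymes passed. The counts were 5 of 8 for chondrocyte-like minus osteoblast-like cells (21.5% of all genes), 5 for chondrocyte-like minus BMSC-like (44.6%), 6 for chondrocyte-like minus fibroblast-like (19.7%), 8 for osteoblast-like minus BMSC-like (34.7%), 8 for osteoblast-like minus fibroblast-like (17.4%) and 4 for BMSC-like minus fibroblast-like (26.2%). Without Fracture preparation 1 or 2 the counts were 2 and 3 for chondrocyte-like minus osteoblast-like cells, 3 and 4 for osteoblast-like minus BMSC-like cells and 2 and 2 for osteoblast-like minus fibroblast-like cells, and without Control preparation 1 all 8 passed for chondrocyte-like minus BMSC-like cells. The Lox response was larger in chondrocyte-like cells than in each of the others, by 3.03 ± 0.16 against osteoblast-like, 2.60 ± 0.16 against BMSC-like and 2.06 ± 0.16 against fibroblast-like cells on the log2 scale (adjusted p = 6.73e-08, 7.04e-08 and 2.41e-06, edgeR). The Loxl1 response of BMSC-like cells lay 2.09 ± 0.21 below that of fibroblast-like cells (log2 -2.09, adjusted p = 1.47e-05, edgeR). The Loxl2 response of osteoblast-like cells lay below that of fibroblast-like cells (log2 -2.64 ± 0.16, adjusted p = 3.85e-07, edgeR). Plod1 did not pass for chondrocyte-like minus BMSC-like, chondrocyte-like minus fibroblast-like or BMSC-like minus fibroblast-like cells, with log2 differences of -0.03 ± 0.15, -0.17 ± 0.17 and -0.14 ± 0.17. The classes of a preparation share their suspension. The block takes up a shift common to them, but not one confined to a single class. The spread of a gene was estimated over the 4 classes together, and these p-values rest on that pooling.

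Within the chondrocyte-like cells the enzymes were also compared by subclass. Hypertrophic chondrocyte-like cells (Col10a1-led) numbered 484 in Control and 5010 in Fracture, and other chondrocyte-like cells 2208 and 8583. Of the others, a cluster led by Chrdl2 held 711 and 185 Control and 2858 and 3034 Fracture cells. A cluster with Serpina1a among its leading genes held 722 and 252 Control and 804 and 851 Fracture cells. The part of this makeup in the Lox and other values of other chondrocyte-like cells was not tested. Other chondrocyte-like cells had 7 enzymes that rose (background 18.6%, with 16.5% that fell), and hypertrophic chondrocyte-like cells 4 that rose and 1 that fell (background 9.72% and 9.42%). Lox was 10.9 and 11.3 CPM in Control and 259 and 276 in Fracture in other chondrocyte-like cells (log2 4.59 ± 0.07, adjusted p = 0.000683, edgeR). The Control values there lay at or near the erythroid-like level of Lox (25.6 and 9.55 CPM), so the size of the fold rests on background, and the Fracture values lay above the erythroid-like 178 and 129 CPM. In hypertrophic chondrocyte-like cells it was 199.9 and 125 against 709 and 752 (4.49-fold, log2 2.17 ± 0.23, adjusted p = 0.00577, edgeR). Loxl3 fell in hypertrophic chondrocyte-like cells (94.8 and 83.4 against 60.9 and 68.5, log2 -0.46 ± 0.11, adjusted p = 0.048, edgeR). That fall lay close to the threshold of 0.05, and its log2 value ran from -0.55 to -0.35 with a preparation left out. In the other chondrocyte-like cells Loxl3 rose (126 and 119 against 195 and 203, log2 0.70 ± 0.06, adjusted p = 0.00338, edgeR). The difference between these subclasses was not tested. Loxl4 was higher in hypertrophic chondrocyte-like cells (274 and 303 in Control, 448 and 439.9 in Fracture) than in the others (23.6 and 27.3, then 79.4 and 75.5). Without Fracture preparation 1 or 2, 1 enzyme was called in hypertrophic and 6 in other chondrocyte-like cells.

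A second clustering of the BMSC-like, fibroblast-like and osteoblast-like cells gave diaphyseal (dpMSC)-like and metaphyseal (mpMSC)-like stromal cells and, at a finer resolution, septoclast-like cells. In dpMSC-like cells 7 enzymes rose and 1 fell (background 27.4% and 26.8%), in mpMSC-like cells 5 rose and 2 fell (background 15.7% and 13.8%) and in septoclast-like cells 2 rose (background 10.7%, with 9.11% that fell). Loxl1 fell in both larger groups, from 393 and 362 to 265 and 309 in dpMSC-like (log2 -0.40 ± 0.12, adjusted p = 0.0366, edgeR) and from 399 and 482 to 213 and 278 in mpMSC-like cells (log2 -0.84 ± 0.16, adjusted p = 0.0187, edgeR). Plod2 rose in dpMSC-like cells, from 147 and 168 to 349.7 and 353 (log2 1.16 ± 0.10, adjusted p = 0.00112, edgeR), and fell in mpMSC-like cells, from 339.9 and 373 to 283 and 298 (log2 -0.29 ± 0.08, adjusted p = 0.0493, edgeR). That fall lay close to the threshold of 0.05, and its log2 value ran from -0.34 to -0.23 with a preparation left out. The Plod2 difference between dpMSC-like and mpMSC-like cells was not tested. All 6 dpMSC markers are also BMSC markers, which summed to 30930 and 32660 CPM in Control and 2652 and 3269 in Fracture BMSC-like cells. The dpMSC-like cells numbered 2973 in Control and 858 in Fracture. Subclasses were not rerun without integration. The part of the marker shift in the dpMSC-like enzyme values was not tested. Septoclasts are mononuclear cells that resorb cartilage at the growth plate, and the cluster so named carried 8 of the 8 septoclast markers. It held 1033 Control and 579 Fracture cells. The name was rebuilt here from markers. The mpMSC list was not scored at this finer resolution, so the cluster could not be named mpMSC-like. Mmp9, Slc20a2, Kcnk2, A2m, Limch1 and Angpt4 were among the leading genes of both this cluster and the mpMSC-like cluster. The study describes septoclasts as scarce in control bone and increased during fracture repair. The cluster may thus be in large part mpMSC-like cells, and it may not hold the cells the study calls septoclasts. Loxl1 was 471 and 564 CPM in its Control cells. The 2 enzymes that rose in them were Loxl2, from 9.26 and 13.2 to 33.6 and 36.9, and Plod1, from 34.3 and 27.1 to 66.7 and 67.5. Erythroid-like cells held 3.38 and 2.095 CPM of Loxl2 in Control and 27.6 and 13.5 in Fracture, so the Fracture Loxl2 values stood little above the level that free RNA can reach, and 19 and 14.5 CPM of Plod1 in Fracture. These calls also depended on both Fracture preparations. Without either of them fewer enzymes were called by edgeR in dpMSC-like, mpMSC-like and septoclast-like cells.

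**Figure D3:**
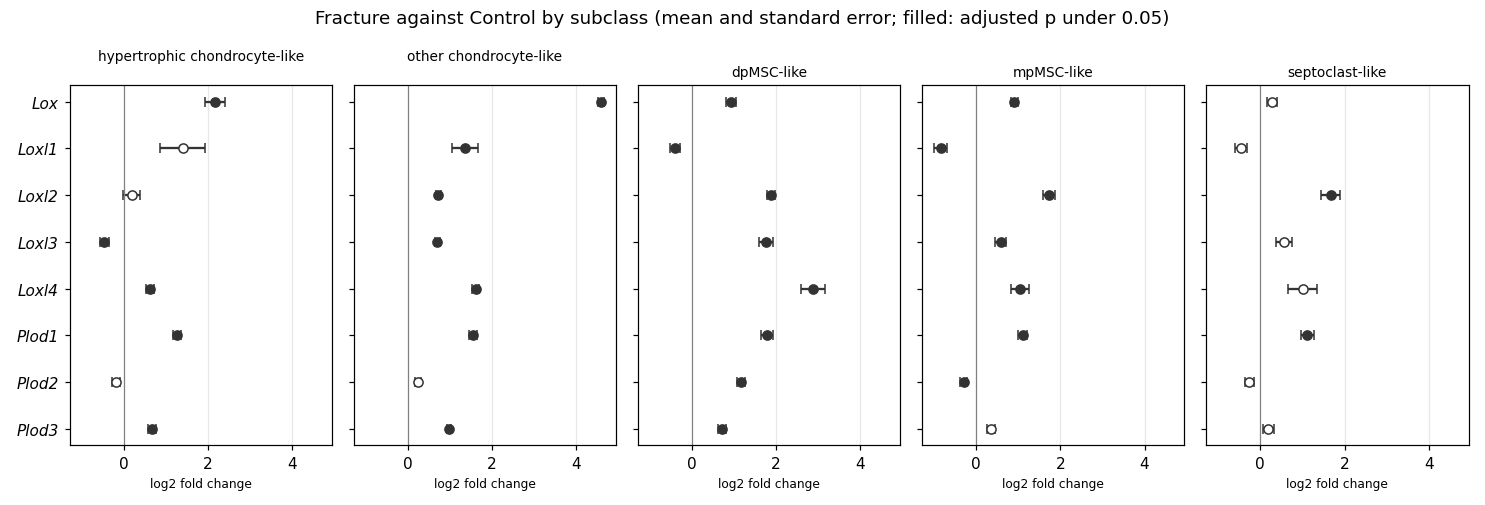
Log2 fold change of Fracture against Control (x axis) for each enzyme in 5 subclasses, with the standard error as bars and filled points where the adjusted p was under 0.05. Lox stands at 4.59 in other chondrocyte-like cells, and Plod2 lies on opposite sides of 0 in dpMSC-like (1.16) and mpMSC-like cells (-0.29). The difference between those was not tested.

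The share of cells with a UMI was compared after each cell was thinned to 1000 UMIs. In chondrocyte-like cells 2.91% and 4.91% of Control cells and 26.2% and 26.2% of Fracture cells held Lox, against 15.8% and 15.9%, then 71.4% and 72.5%, without thinning. The erythroid-like shares were 2.48% and 0.888% in Control and 7.41% and 6.56% in Fracture, with median depths of 9385.5 and 6971 UMIs before thinning against 15100.5 and 12709.5 in chondrocyte-like cells. In Control preparation 1 the chondrocyte-like share was close to the erythroid-like share, and in Control preparation 2 it was higher. In osteoblast-like cells Plod2 was held by 50.2% and 48.9% of Control and 37% and 37.8% of Fracture cells (97.6% and 96.4% against 95.4% and 96% without thinning), and Lox by 59.2% and 53.7% against 65.4% and 64.1% (97.6% and 93.1% against 99.8% and 99.4% without thinning). Loxl1 was held by 32.1% and 33% of Control and 22.8% and 24.3% of Fracture BMSC-like cells (77.5% and 82.4% against 74.7% and 79.7% without thinning, where the preparations overlapped). Each of these 4 thinned comparisons had an exact permutation p of 0.33 (two-sided), the smallest that 2 against 2 preparations allow.

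The enzymes were set against the collagens they modify, as summed UMIs per 1000 UMIs of 8 fibrillar collagen genes. In chondrocyte-like cells the lysyl oxidases stood at 5.07 and 5.42 in Control and 9.77 and 10.1 in Fracture, while the lysyl hydroxylases stood at 15.3 and 17.5 against 12.6 and 12.5. In osteoblast-like cells the oxidases were at 4.65 and 4.48 against 4.92 and 4.92, and the hydroxylases at 3.33 and 3.18 against 2.43 and 2.35. In BMSC-like cells the oxidases were at 74.8 and 119 in Control and 20.6 and 20.8 in Fracture, with summed collagen at 11551 and 7905 CPM against 48207 and 47064. Fibroblast-like cells went from 26.9 and 50 to 15.7 and 16.7 for the oxidases, while the summed oxidases were higher in Fracture (524 and 543 against 1231 and 1275 CPM) and so was summed collagen (19470 and 10862 against 78641 and 76404 CPM). Summed oxidases in BMSC-like cells were 864 and 941 against 992 and 979 CPM, so neither lower ratio was a lower enzyme sum. The hydroxylases were at 30.5 and 43.7 against 9.62 and 9.82 in BMSC-like cells and at 43.5 and 47.7 against 15.1 and 14.9 in fibroblast-like cells. In these sums the oxidase level per collagen UMI was higher in Fracture in chondrocyte-like and, by a small margin, osteoblast-like cells and lower in BMSC-like and fibroblast-like cells, and the hydroxylase level was lower in Fracture in all 4 of these classes. They are a description without a test.

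**Figure D4:**
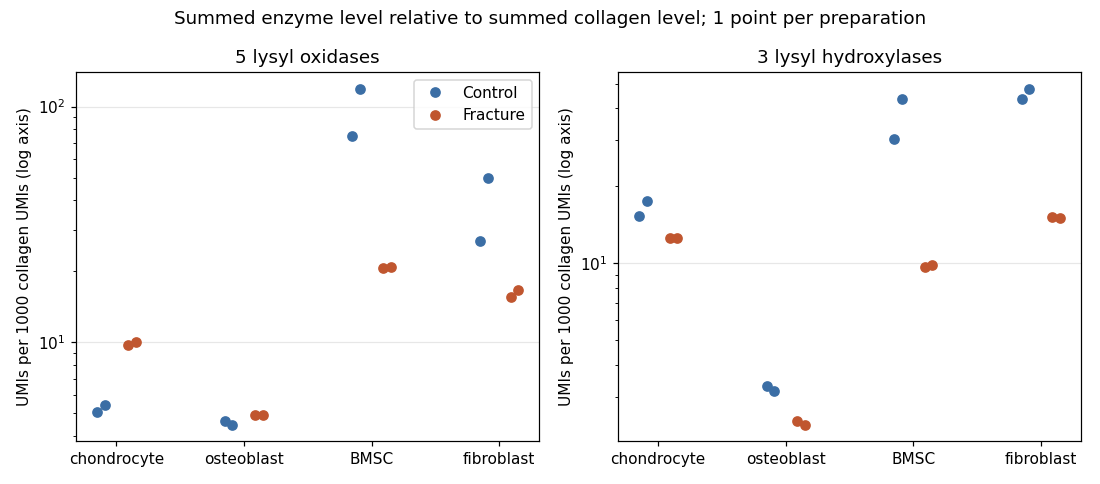
Summed UMIs of the 5 lysyl oxidases (left) and the 3 lysyl hydroxylases (right) per 1000 UMIs of fibrillar collagen genes (log axes) in 4 classes, with 1 point per preparation. BMSC-like cells fall from 74.8 and 119 to 20.6 and 20.8 for the oxidases, whereas chondrocyte-like cells go from 5.07 and 5.42 to 9.77 and 10.1.

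The other genes of collagen processing were taken from lists of prolyl hydroxylases, sugar transferases, chaperones, procollagen proteinases, copper transporters and lysyl oxidase partners, 33 genes in all, of which 32 were tested in osteoblast-like and 30 in smooth muscle-like cells. In chondrocyte-like cells 17 rose and 3 fell (of all genes 19.2% and 18.1%), in osteoblast-like cells 18 and 2 (9.76% and 6.67%), in BMSC-like cells 25 and 5 (25.6% and 25.9%), in fibroblast-like cells 17 and 2 (8.32% and 7.99%), in endothelial-like cells 23 and 1 (17.9% and 15.9%) and in smooth muscle-like cells 24 and 1 (14.9% and 13.3%). Without Fracture preparation 1 or 2, 0 of all genes were called by edgeR in osteoblast-like, fibroblast-like and endothelial-like cells, so none of these pathway calls stood there, while 1727 to 4040 genes had an unadjusted p under 0.05. All 4 prolyl 4-hydroxylase genes (P4ha1, P4ha2, P4ha3, P4hb), which stabilize the collagen helix, rose in each of the 6 classes, P4ha3 at low levels in some of them (0.257 and 0.309 against 1.42 and 0.83 in osteoblast-like cells). Pathway values of endothelial-like and smooth muscle-like cells stand beside the higher chondrocyte markers of these classes given above, whose part was not tested. Of the 3 copper supply genes, Atp7a, Slc31a1 and Atox1, Slc31a1 rose in chondrocyte-like, BMSC-like, fibroblast-like and smooth muscle-like cells and Atox1 in BMSC-like and smooth muscle-like cells, while Atp7a was called in none of the 6 classes by edgeR (unadjusted p of 0.112 to 0.686).

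Among the binding partners of lysyl oxidases, Postn (periostin) rose from 5.91 and 1.63 to 201 and 201 CPM in chondrocyte-like cells (log2 5.69 ± 0.68, adjusted p = 0.00731, edgeR). Fn1 (fibronectin) rose from 342 and 209 to 4480 and 4363 in BMSC-like cells (log2 4.01 ± 0.30, adjusted p = 0.00207, edgeR). Fbln5 (fibulin-5), an elastic fibre protein that binds Loxl1, fell from 1025 and 1311 to 209 and 247 in BMSC-like cells (log2 -2.36 ± 0.17, adjusted p = 0.00202, edgeR). It also fell in endothelial-like cells, from 534 and 427 to 129 and 139 (log2 -1.84, adjusted p = 0.00674, edgeR), and, at a low level, in osteoblast-like cells (log2 -1.64, adjusted p = 0.0149, edgeR), where Loxl1 was not called. The procollagen proteinase Adamts2 fell in BMSC-like cells from 443 and 438 to 231 and 234 (adjusted p = 0.00207, edgeR). Fmod (fibromodulin), a collagen-binding proteoglycan, rose 36.2-fold in BMSC-like cells, from 33.1 and 7.56 to 755 and 722 (log2 5.18 ± 0.79, adjusted p = 0.00752, edgeR). In osteoblast-like cells it rose 11.6-fold, from 12.9 and 6.54 to 116 and 110.2 (log2 3.53 ± 0.34, adjusted p = 0.00892, edgeR). The Control preparations lay far apart for Fmod in BMSC-like and Postn in chondrocyte-like cells, so the size of these rises is uncertain. In BMSC-like cells BMSC markers were lower and fibroblast and chondrocyte markers higher in Fracture, as given above, and fibroblast-like cells held Fn1 at 11110 and 13950 in Control and 11160 and 11190 in Fracture. Pcolce2, an enhancer of procollagen cleavage, fell in fibroblast-like cells from 1078 and 1178 to 287 and 229 (adjusted p = 0.00806, edgeR) and rose in osteoblast-like cells from 18.3 and 20.4 to 115 and 109 (adjusted p = 0.00214, edgeR). Fibroblast markers of the fibroblast-like class were lower in Fracture. In osteoblast-like cells chondrocyte markers went from 229 and 93.6 to 998 and 953 CPM, and Pcolce2 stood at 2418 and 2335, then 1423 and 1396 CPM, in chondrocyte-like cells and at 10.5 and 2.188, then 63.9 and 53.1 CPM, in erythroid-like cells. The part of these in the Pcolce2 and Fmod differences was not tested. Colgalt2, a sugar transferase acting on hydroxylysine, fell in chondrocyte-like cells from 124 and 137 to 64.5 and 62.3 (adjusted p = 0.00228, edgeR).

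The genes whose levels ran most like each enzyme were found over 24 sums, 6 classes in 4 preparations, by Pearson's r of log2(CPM + 1). The sums share their preparations, so r is a description. Loxl1 was most like Egfr (r = 0.983), Fzd1 (0.960) and Olfml2b (0.952), and Loxl4 most like Frzb (0.966). Loxl2 was most like RP23-103I12.13 (0.976), a gene known only by a clone name, and Fam114a1 (0.910). Plod2 was most like Me1 (0.958), Loxl3 like Hspb11 (0.938), Plod3 like Tgfbi (0.933) and Lox like Maged1 (0.913). Plod1 had the weakest nearest pattern, Fam198b (0.865). No enzyme of the 8 was among the 3 genes nearest to another.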

How the data were processed

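UMI counts per gene and barcode of 8 libraries, deposited by the authors, were used as they stand. The processing notes name bcl2fastq 2.19.1.403, UMI-tools 1.0.0, STAR 2.7.3a, featureCounts 1.6.4 and mm10, the study's methods name another pipeline, and which made the files was not settled. Barcodes with 500 to 6000 genes and at most 25% mitochondrial counts were kept, and genes in at least 3 cells. Libraries were integrated and clustered with Seurat 5.3.0, and clusters named from marker genes with at least 3 markers required. Doublets were scored but kept, and the caller marked 1 and 5 cells in 2 Fracture libraries, where it had not worked. At most 23 barcodes were shared by any pair of libraries.

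UMIs were summed per preparation and class, joining its 2 libraries, and tested with edgeR 4.0.16 (quasi-likelihood, TMM, filterByExpr) under R 4.3.3, with DESeq2 1.42.0 as an alternative. Scripts were tested on simulated data. CPM values were computed from the deposited counts. Groups came from the labels. Pathway genes were named from, per class, up to 3 called rises and 3 called falls of the largest size, among genes of at least 20 CPM whose preparations did not overlap, of which a part is described. The prolyl 4-hydroxylase and copper supply genes, and Fbln5 in osteoblast-like cells, fall outside this rule and were chosen after their values were seen. The members and lists were chosen with earlier results of these data known. Alternatives were RLE scaling, DESeq2, no filter, a replicate block, leaving out each preparation, doublets removed, no integration and a minimum of 3000 UMIs per cell. To compare shares, cells were thinned to 1000 UMIs and shallower cells left out, 12 of 2746 Control chondrocyte-like cells and none of Fracture. With 2 preparations per group, p-values rest on few samples.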

Additional observations from a re-analysis of the deposited data

Results flagged for a closer look

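The response to fracture differed between classes for 36 of the 48 pairs of enzyme and class comparison tested, each by the class-by-group term of the edgeR fit with Benjamini-Hochberg adjustment over all genes. Of all genes, 17.4% to 44.6% passed in the 6 comparisons, and the 5 of 8 enzymes for chondrocyte-like minus BMSC-like cells stand beside 44.6%. All values here are differences of log2 fold changes, the first class minus the second, so a negative value is a lower response in the first class. For BMSC-like minus fibroblast-like cells they were Lox (-0.54), Loxl1 (-2.09), Loxl4 (1.64) and Plod3 (-0.75). For chondrocyte-like minus BMSC-like cells they were Lox (2.6), Loxl1 (1.72), Loxl2 (-0.97), Loxl3 (-0.92) and Plod3 (0.4). For chondrocyte-like minus fibroblast-like cells they were Lox (2.06), Loxl2 (-1.35), Loxl3 (-1.09), Loxl4 (1.4), Plod2 (-0.74) and Plod3 (-0.36). For chondrocyte-like minus osteoblast-like cells they were Lox (3.03), Loxl1 (0.87), Loxl2 (1.29), Loxl4 (0.63) and Plod1 (0.75). For osteoblast-like minus BMSC-like cells they were Lox (-0.43), Loxl1 (0.85), Loxl2 (-2.27), Loxl3 (-0.85), Loxl4 (-0.86), Plod1 (-0.79), Plod2 (-1.04) and Plod3 (0.32). For osteoblast-like minus fibroblast-like cells they were Lox (-0.97), Loxl1 (-1.24), Loxl2 (-2.64), Loxl3 (-1.02), Loxl4 (0.77), Plod1 (-0.92), Plod2 (-1.37) and Plod3 (-0.43). All were fitted on the integrated clusters only. Those with BMSC-like cells, whose enzyme values moved without integration, were not rerun on the other clusters. Causes of these differences were not tested.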

How the results depend on the processing

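Because groups share preparation numbers, a fit with the preparation number as a replicate block was run. The correlation of same-numbered deviations over genes was 0.01 to 0.06. With a single pair of differences per class, it cannot settle whether same-numbered preparations were processed together. With that block 4131 genes were called in chondrocyte-like, 1165 in osteoblast-like, 641 in fibroblast-like, 1479 in hypertrophic chondrocyte-like and 3776 in other chondrocyte-like cells, against 6454, 2259, 2052, 2730 and 5750 without it, and 4 enzymes in place of 2 in septoclast-like cells. Without the block in the class differences, 2047 genes and 3 enzymes were called for chondrocyte-like minus osteoblast-like and 3783 and 5 for osteoblast-like minus BMSC-like cells. With no filter on low counts, 3626 genes were called in fibroblast-like and 3636 genes and 5 enzymes in septoclast-like cells.

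Clusters without integration left 3 enzymes called in BMSC-like cells and turned Lox to -0.27 and Plod3 to -0.18 (log2). Loxl4 in fibroblast-like cells, which had not passed the test, turned to -0.14 with called doublets removed, to -0.34 without integration and to -0.73 with the highest doublet scores removed, an alternative chosen after seeing the data. Other signs that turned belonged to values that had not passed: without Control preparation 1, Loxl4 in fibroblast-like cells (-0.08) and Loxl1 for chondrocyte-like minus fibroblast-like (0.45), and without Control preparation 2, Loxl2 in hypertrophic chondrocyte-like cells (-0.05), Loxl3 (0.01) and Plod3 (-0.01) for chondrocyte-like minus osteoblast-like, Loxl4 (0.02) and Plod1 (0.21) for chondrocyte-like minus BMSC-like, Plod1 (0.09) for chondrocyte-like minus fibroblast-like and Plod2 (0.04) for BMSC-like minus fibroblast-like cells. Shares of cells turned without thinning for Loxl3 (-3.97 percentage points) and Plod2 (2.01) in chondrocyte-like, Loxl3 (-3.61) in osteoblast-like and Loxl4 (0.265) in fibroblast-like cells, and at 3000 UMIs for Loxl1 in osteoblast-like (0.633) and Lox (-0.238) and Plod3 (-0.243) in BMSC-like cells. The causes were not tested.

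With each preparation left out in turn, where the lone preparation is assumed to vary like the other group, the genes called numbered 512 to 9148 (chondrocyte-like), 0 to 5383 (osteoblast-like), 2277 to 9349 (BMSC-like), 0 to 4254 (fibroblast-like), 0 to 7565 (endothelial-like), 809 to 3656 (smooth muscle-like), 0 to 8097 (dpMSC-like), 572 to 4912 (mpMSC-like), 0 to 3614 (septoclast-like), 204 to 4777 (hypertrophic chondrocyte-like), 576 to 7616 (other chondrocyte-like), 1174 to 5106 (chondrocyte-like minus osteoblast-like), 4066 to 7777 (chondrocyte-like minus BMSC-like), 1180 to 3723 (chondrocyte-like minus fibroblast-like), 2176 to 6383 (osteoblast-like minus BMSC-like), 708 to 3487 (osteoblast-like minus fibroblast-like), 1751 to 4143 (BMSC-like minus fibroblast-like). Of the 8 enzymes, those called numbered 3 to 7 (chondrocyte-like), 0 to 6 (osteoblast-like), 4 to 8 (BMSC-like), 0 to 7 (fibroblast-like), 0 to 7 (endothelial-like), 4 to 8 (smooth muscle-like), 0 to 8 (dpMSC-like), 3 to 7 (mpMSC-like), 0 to 5 (septoclast-like), 1 to 7 (hypertrophic chondrocyte-like), 6 to 8 (other chondrocyte-like), 2 to 6 (chondrocyte-like minus osteoblast-like), 4 to 8 (chondrocyte-like minus BMSC-like), 4 to 7 (chondrocyte-like minus fibroblast-like), 3 to 8 (osteoblast-like minus BMSC-like), 2 to 8 (osteoblast-like minus fibroblast-like), 3 to 5 (BMSC-like minus fibroblast-like). The log2 values of those that turned ran from -0.08 to 0.19 (Loxl4, fibroblast-like), -0.05 to 0.51 (Loxl2, hypertrophic chondrocyte-like), -0.14 to 0.01 (Loxl3, chondrocyte-like minus osteoblast-like), -0.01 to 0.19 (Plod3, chondrocyte-like minus osteoblast-like), -0.49 to 0.02 (Loxl4, chondrocyte-like minus BMSC-like), -0.27 to 0.21 (Plod1, chondrocyte-like minus BMSC-like), -0.78 to 0.45 (Loxl1, chondrocyte-like minus fibroblast-like), -0.59 to 0.09 (Plod1, chondrocyte-like minus fibroblast-like), -0.87 to 0.04 (Plod2, BMSC-like minus fibroblast-like). Moving a few cells between subclasses, as another arithmetic setting of the clustering did, changed how many enzymes were called without a Fracture preparation in dpMSC-like and mpMSC-like cells, so these counts are not stable.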
